A study of Homo sapiens with 4 samples.

Results

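The 8 genes followed here make or restrain the elongating form of RNA polymerase II. They are HEXIM1 and HEXIM2, which inhibit the positive transcription elongation factor P-TEFb, CDK9, CCNT1 and CCNT2, which encode its kinase and cyclin subunits, and the elongation factors ELL, ELL2 and ELL3. The set was proposed after the BCL6 peak lists had been examined and a strong region near HEXIM2 was known, so its values are described and not tested. It holds 8 of 19974 autosomal and X-linked protein-coding genes in the RefSeq table. A BCL6 peak was assigned to a gene when its summit lay inside the gene or within 50 kb of either annotated end.

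BCL6 occupancy was mapped by CUT&RUN in the established cell line SUDHL5, which comes from a diffuse large B-cell lymphoma, with the antibody D65C10. In CUT&RUN an antibody draws a nuclease to its target on chromatin, and the DNA it cuts free is sequenced. Nuclei were profiled in 2 biological replicates with the BCL6 antibody and in 2 with normal rabbit IgG, and the labels give no treatment for any of them. The IgG libraries are not analysed here. The BCL6 lists held 5237 peaks in replicate 1 and 3536 in replicate 2, called separately. Their median fold enrichment, the authors' ratio of summit to local background, was 3.55 and 3.74. Peak lists measure no expression, so neither the cell type nor the activity of these genes could be checked from them.

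P-TEFb releases RNA polymerase II from its pause near the start of a gene by phosphorylating the polymerase and the factors that hold it. HEXIM proteins, bound to the 7SK RNA, keep a large share of P-TEFb inactive, and HEXIM1 is widely used as a readout of drugs that disturb this balance. ELL proteins join P-TEFb in super elongation complexes, and ELL2 is known in mouse plasma cells for its part in making secreted immunoglobulin mRNA. BCL6 is a zinc finger repressor that maintains the germinal centre state of B cells.

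BCL6 peaks of both replicates lay at or near the inhibitors HEXIM1 and HEXIM2 and the elongation factors ELL and ELL3. The kinase and cyclin subunits had 1 weak peak in 1 replicate between them, and ELL2 had none. A summit of either list was found within 50 kb of 5 of the 8 genes, against 37.3% of all protein-coding genes. Replicate 1 had summits at the same 5 genes, against 29.5% of all protein-coding genes, and replicate 2 at 4 of them, against 23.3%. A shared region, in which peaks of both lists overlap by at least 1 bp, was found at 4 genes, against 10.2% of all protein-coding genes. These 4 were HEXIM1, HEXIM2, ELL and ELL3. By class, 2 of 2 inhibitors, 0 of 3 subunits and 2 of 3 ELL factors had a shared region. HEXIM1 and HEXIM2 are neighbours and share every region. Counted as 1 locus, they leave 3 loci with a shared region, and the classes are too small to be ranked. The subunits' 1 of 3 genes with any summit, and their 0 of 3 with a shared region, are near the shares of all protein-coding genes. Within 10 kb, 3 genes had a summit of either list and 2 a shared region, against 23% and 5.79% of all protein-coding genes. The 3 were HEXIM1, CCNT1 and ELL3, which is 1 gene of each class, and the 2 were HEXIM1 and ELL3. The contrast between the classes in summits of either list thus depended on the 50 kb window.

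**Figure D1:**
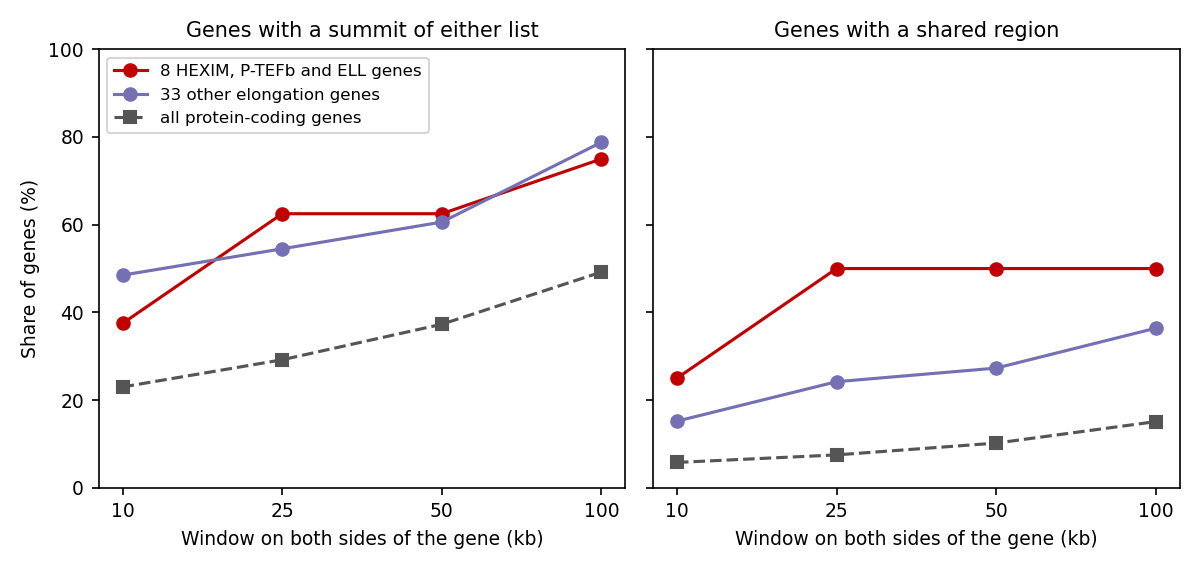
Share of genes with a BCL6 summit of either list (left) and with a shared region (right), by the window added on both sides of the gene in kb. Red circles are the 8 genes, purple circles 33 other elongation genes and grey squares all 19974 protein-coding genes. The 8 genes lie above all protein-coding genes in each of the 4 windows, but each wider window includes the narrower ones. The set was chosen with the strong region near HEXIM2 known, and the neighbours HEXIM1 and HEXIM2 are counted as separate genes. The heights are therefore described and not tested.

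The 8 genes held 9 distinct regions, of which 4 were shared and 5 were found in replicate 1 only. These 9 regions comprised 10 peaks of replicate 1 and 4 of replicate 2. Over the autosomes and X, 5230 replicate 1 peaks and 3529 replicate 2 peaks gave 1311 shared regions, and peaks in 1 list only were common. The shared part of all merged regions was not computed, so 4 of 9 is not read as a trait of these genes. The values at single peaks are the authors', and the pileup, the number of fragments over a summit, was solved from them. The windows differed in size, since the genes run from 3.625 kb (HEXIM1) to 79.4 kb (ELL), and each held between 1 and 6 other protein-coding genes.

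HEXIM1 lies on chromosome 17 at chr17:45148475-45152099 (hg38) on the plus strand, and HEXIM2 follows it at chr17:45160174-45170040. A shared region at chr17:45148752-45149908 lay inside HEXIM1. Replicate 1 gave it a fold enrichment of 4.75 (−log10 q 10.7) and replicate 2 one of 2.56 (−log10 q 2.57). The summits lay 939 and 673 bp downstream of the HEXIM1 start, 266 bp apart. The region thus ranked high in replicate 1 (449 of 5237 by q) and low in replicate 2 (2620 of 3536 by q). By fold enrichment the ranks were 749 and 3385. A second peak, in replicate 1 only, had its summit 810 bp upstream of HEXIM1, with a fold enrichment of 2.95 and −log10 q of 3.56.

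The HEXIM1 start itself lay between these peaks. In replicate 1 the peaks on either side left a gap of 1015 bp, ending 739 bp before the start and resuming 277 bp after it. No base of the 250 upstream of the start was under a peak of either list. That stretch, chr17:45148225-45148474 on the plus strand, is shown because both flanks carry peaks and it does not. Capitals mark the letters TATAAA, as in many core promoters, and the letters GGGCGG of a typical binding site for the factor Sp1. Both were searched on both strands after the sequences had been seen.

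HEXIM1: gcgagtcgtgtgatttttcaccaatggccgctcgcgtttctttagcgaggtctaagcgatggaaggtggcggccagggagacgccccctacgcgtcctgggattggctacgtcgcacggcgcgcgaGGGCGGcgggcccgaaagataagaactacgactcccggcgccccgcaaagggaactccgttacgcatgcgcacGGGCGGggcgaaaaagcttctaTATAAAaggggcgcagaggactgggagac

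The stretch held 1 TATAAA, which 9% of 22130 such 250-base windows upstream of protein-coding starts also hold, and 2 GGGCGG, which 53.7% hold at least once. Of the starts in the same RefSeq table, 100 (0.452%) lay between separate replicate 1 peaks ending within 1 kb on both sides, and 567 (2.56%) lay under a replicate 1 peak. HEXIM1 and ELL3 were the genes of the set among these 100. In replicate 2, 61 starts (0.276%) lay between peaks in this way, none of them of the 8 genes, and 433 (1.96%) lay under a peak, that of ELL3 among them. This count was made after the gap at HEXIM1 had been seen.

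The strongest region at any of the 8 genes lay downstream of HEXIM2, at chr17:45190518-45191462. Replicate 1 gave it a fold enrichment of 10.9 (−log10 q 48.1) and replicate 2 one of 15.7 (−log10 q 60.8). By fold enrichment it was peak 13 of 5237 in replicate 1 and peak 2 of 3536 in replicate 2. By q it was peak 13 and peak 8. Both lists placed it firmly: the summits were 14 bp apart, and the replicate 2 peak lay wholly within the replicate 1 peak. Ranked by whichever replicate was lower, it was number 5 of 1311 shared regions on the autosomes and X. The summit was 20.9 kb from the end of HEXIM2 and 38.8 kb from that of HEXIM1.

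Another annotated gene lay on that summit. The long noncoding RNA gene FMNL1-DT spans chr17:45190931-45221765 on the minus strand, and the summits were 31 bp (replicate 1) and 17 bp (replicate 2) inside its 3′ end. HEXIM2-AS2, also a long noncoding RNA gene, was 19.5 kb away. Among protein-coding genes HEXIM2 was the nearest, and FMNL1, a formin that acts on actin, followed at 30.9 kb. The start of FMNL1-DT was 30.8 kb from the summit. A weaker peak of replicate 1 only, at chr17:45197529-45197869, had a fold enrichment of 3.43 and lay 27.8 kb from HEXIM2, inside FMNL1-DT and closer to FMNL1 (24.1 kb). At 45.7 kb from HEXIM1 it was also the summit nearest to the edge of any 50 kb window.

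**Figure D2:**
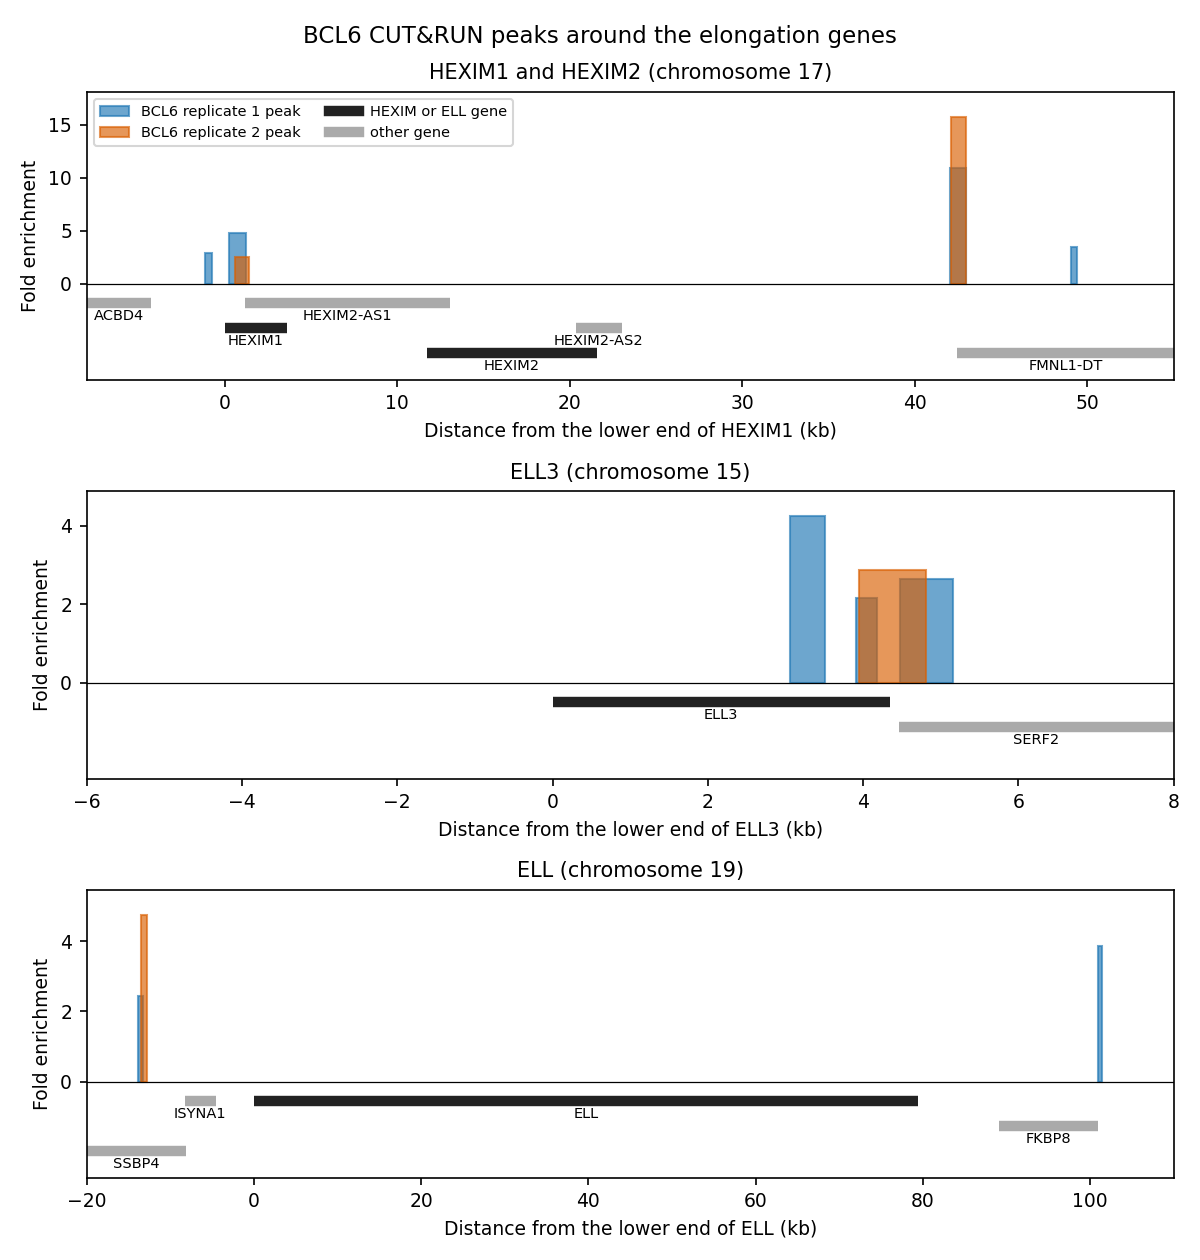
BCL6 peaks as bars (height, fold enrichment; narrow peaks are widened to stay visible) at HEXIM1 and HEXIM2, ELL3 and ELL, by distance in kb from the lower-coordinate end of HEXIM1, ELL3 and ELL. Replicate 1 is blue, replicate 2 orange, genes of the set are black and other genes grey. The tallest bars (10.9 and 15.7) stand at the end of FMNL1-DT. The shared region at ELL3 covers its start and that of SERF2, 120 bp apart, and a further replicate 1 peak lies inside ELL3.

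At the P-TEFb subunits, 1 weak peak was found. It lay in replicate 1 at chr12:48681410-48681945, 6.515 kb beyond the 3′ end of CCNT1, which encodes cyclin T1. Its fold enrichment was 2.57 and its −log10 q 1.48, in a list where the lowest −log10 q was 1.31. It ranked 5070 of 5237 by q and 4759 by fold enrichment. The summit fell inside KANSL2, a subunit of an acetyltransferase complex, 295 bp from the end at which KANSL2 starts on the minus strand. Replicate 2 had no summit closer to CCNT1 than 209 kb.

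CDK9, the kinase of P-TEFb, had no summit within its window in either list. The nearest lay 114 kb away in replicate 1 and 277 kb away in replicate 2. CCNT2, which encodes cyclin T2, had none closer than 336 kb in replicate 1 and 180 kb in replicate 2. The nearest shared regions were 2096 kb from CDK9, 856 kb from CCNT1 and 799 kb from CCNT2. Their windows were not devoid of genes: CDK9 had 3 other protein-coding genes within 50 kb, CCNT1 had 4 and CCNT2 had 2. Many weak peaks were found in 1 list only, so a missing peak is not evidence that BCL6 did not bind.

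The 250 bases upstream of the CCNT2 start, chr2:134918572-134918821 on the plus strand, are shown for comparison with the HEXIM1 stretch. They overlap the antisense gene CCNT2-AS1, hold 3 GGGCGG (capitals) and no TATAAA, and had no peak nearby.

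CCNT2: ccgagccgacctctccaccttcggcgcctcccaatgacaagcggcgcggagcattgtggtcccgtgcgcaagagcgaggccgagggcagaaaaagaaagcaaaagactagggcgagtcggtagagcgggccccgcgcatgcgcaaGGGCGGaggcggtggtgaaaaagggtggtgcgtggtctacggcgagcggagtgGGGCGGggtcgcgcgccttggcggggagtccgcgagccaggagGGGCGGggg

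The HEXIM1 and CCNT2 stretches held 31 CpG each, with 62.4% and 69.6% G or C, against medians of 16 and 62% over all windows. Among the other subunits, the CDK9 window held 37 CpG with 82% G or C, and the 2 CCNT1 windows held 24 CpG with 59.2% and 0 CpG with 29.6%.

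ELL3 carried its shared region at the start of the gene. ELL3 lies at chr15:43772620-43776966 on the minus strand, and SERF2 starts on the plus strand 120 bp away. Both are thus transcribed outward from 1 short interval. The shared region at chr15:43776533-43777779 covered both starts. In replicate 2 it was 1 peak of 864 bp with a fold enrichment of 2.87, a −log10 q of 4.66 and its summit 188 bp inside ELL3. In replicate 1 it consisted of 2 peaks. The first had a fold enrichment of 2.17 with its summit 168 bp inside ELL3, and the second 2.64 with its summit 269 bp outside ELL3 and inside SERF2. Their −log10 q values were 1.65 and 3.99.

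The 2 replicate 1 peaks left a gap of 299 bp that held both starts, while the replicate 2 peak ran across it. The 119 bases between the starts, chr15:43776967-43777085, were entirely under the replicate 2 peak and entirely outside the replicate 1 peaks. They are shown on the ELL3 strand with GGGCGG, on either strand, in capitals.

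ELL3-SERF2: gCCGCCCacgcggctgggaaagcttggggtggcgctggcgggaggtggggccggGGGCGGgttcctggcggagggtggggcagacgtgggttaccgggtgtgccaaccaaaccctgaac

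The interval held 2 GGGCGG and no TATAAA. Of the 119 bases upstream of all protein-coding starts in the table, 43.7% held GGGCGG and 5.32% TATAAA. Another replicate 1 peak, at chr15:43775677-43776131, lay wholly inside ELL3 with its summit 1030 bp from the start. Its fold enrichment of 4.25 and −log10 q of 5.19 were the highest at ELL3, and no replicate 2 peak overlapped it.

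ELL, the founding member of the family, had a shared region outside the gene. It spanned chr19:18428915-18429931, with fold enrichments of 2.44 in replicate 1 and 4.74 in replicate 2 and −log10 q of 1.65 and 6.82. The summits were 30 bp apart and 13.5 kb beyond the 3′ end of ELL. Other genes were closer: the summits fell inside SSBP4, 5.39 kb from its end, and lay 5.22 kb from ISYNA1, an enzyme of inositol synthesis. On the other side of ELL, replicate 1 alone had a peak 21.8 kb beyond the ELL start, with a fold enrichment of 3.85 and −log10 q of 6.93. FKBP8, an FK506-binding protein, was 312 bp from that summit, and KXD1 (14.0 kb) was also closer than ELL. No summit fell inside ELL in either list.

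ELL2 had no summit within 50 kb. The nearest in replicate 1 lay 76.4 kb from the gene, with a fold enrichment of 3.49, and is the closest peak left out by the 50 kb limit at any of the 8 genes. The nearest in replicate 2 lay 236 kb away, and the nearest shared region 330 kb. ELL2 (76.8 kb) and ELL (79.4 kb) are of similar length, so their windows are of like size, but 1 other protein-coding gene lay in the ELL2 window and 6 in that of ELL.

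The strength of the regions set the HEXIM2 region apart from the other 8. The remaining 12 peaks had fold enrichments between 2.17 and 4.75. At the region beyond HEXIM2 the summit pileup was 74 (exact Poisson 95% interval 58.1 to 92.9) in replicate 1 and 73 (57.2 to 91.8) in replicate 2, over backgrounds of 5.90 and 3.71. Inside HEXIM1 it was 36 (25.2 to 49.8) over 6.80 in replicate 1 and 30 (20.2 to 42.8) over 11.1 in replicate 2. These intervals cover counting error only, and pileups of the 2 libraries were not scaled to each other because read totals are not known here.

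At HEXIM1 and at ELL the pileup intervals of the replicates overlapped, while the local backgrounds differed. Like the pileups, the backgrounds were not scaled between the libraries, and they carry no interval. At ELL the pileups were 23 (14.6 to 34.5) and 24 (15.4 to 35.7), over backgrounds of 8.84 in replicate 1 and 4.28 in replicate 2. At ELL3 the replicate 2 pileup was 38 (26.9 to 52.2) over 12.6, and the replicate 1 pileups in the same region were 31 (21.1 to 44.0) and 38 (26.9 to 52.2) over 13.8. The backgrounds in this shared region were well above the list medians of 5.90 and 4.63, and its pileups were high while its fold enrichments were low. The replicate 1 peak farther inside ELL3 had a pileup of 21 over 4.18, a background below the median. At CCNT1 the pileup was 19 (11.4 to 29.7) over 6.80, below the median pileup of 23 in that list.

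**Figure D3:**
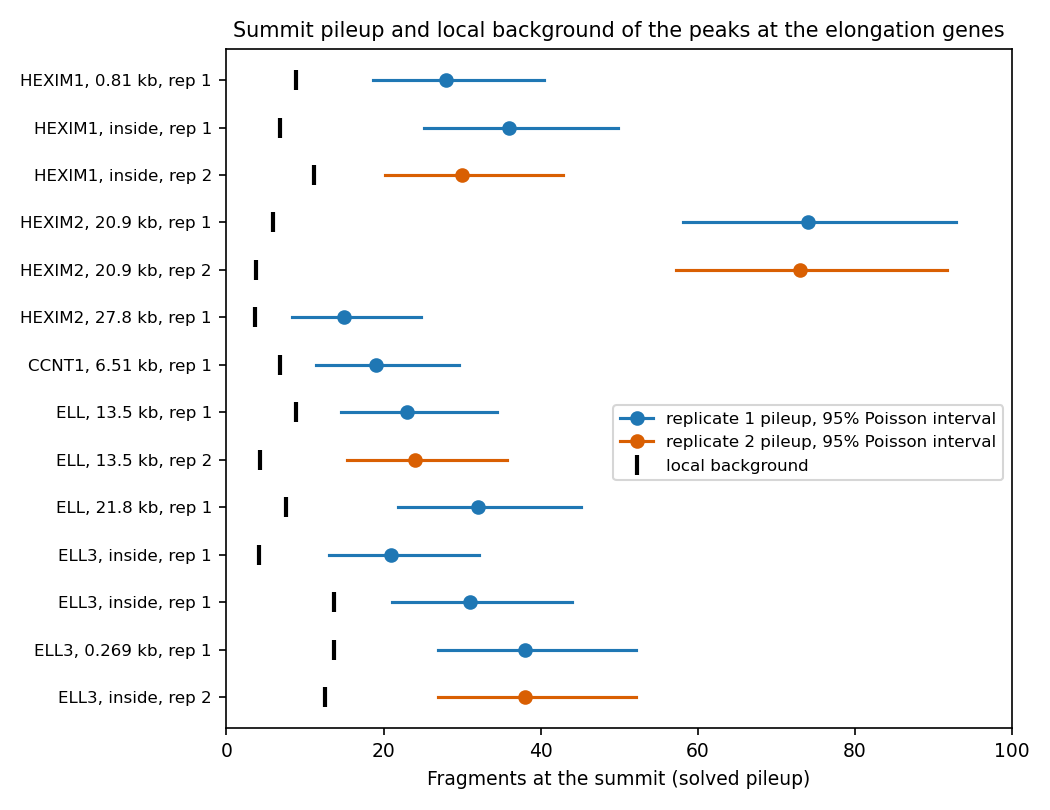
Solved summit pileup (circles) with its exact Poisson 95% interval (lines) and local background (black ticks), in fragments, for the 14 peaks; each row names the nearest gene of the set, the distance of the summit and the replicate. The peaks of the shared region beyond HEXIM2 stand at 74 and 73 fragments, and the other 12 lie between 15 and 38.

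Set among all shared regions, the other 3 were weak. Ranked by whichever replicate was lower, the region at ELL3 was number 1081, that inside HEXIM1 1133 and that near ELL 1191 of 1311. The regions at HEXIM1 and ELL leaned in opposite ways, the first higher in replicate 1 and the second in replicate 2.

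**Figure D4:**
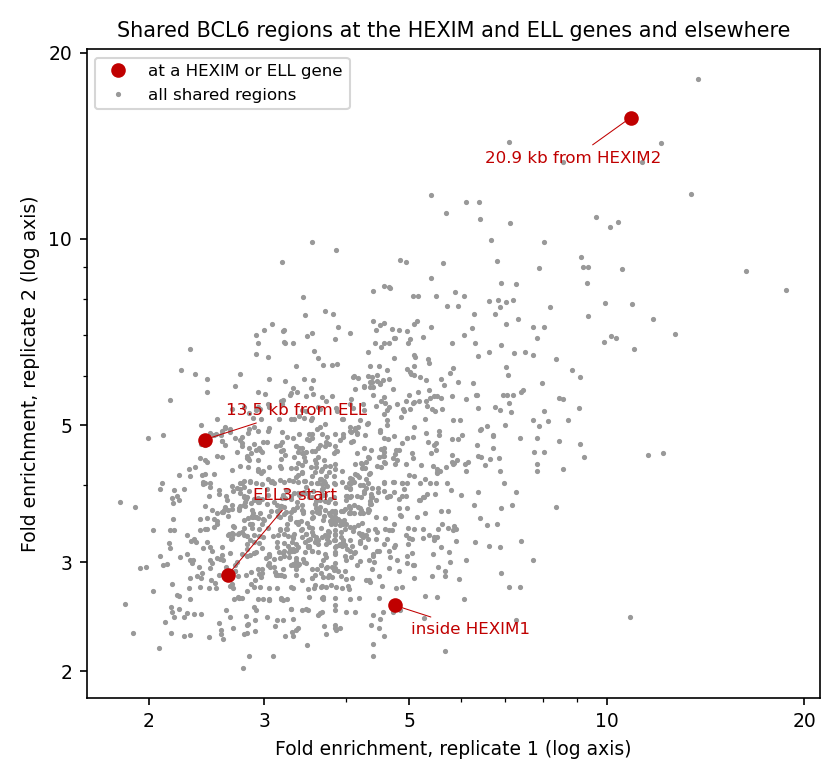
Fold enrichment of each of the 1311 shared regions in replicate 1 (horizontal, log axis) and replicate 2 (vertical, log axis), taking the highest peak of each list in a region. Red circles are the 4 regions at the HEXIM and ELL genes: that beyond HEXIM2 is near the top (10.9 and 15.7), and the other 3 lie in the lower or left part of the grey cloud.

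The upstream windows of these genes held 1 match to the search sequences for BCL6, of the loosest form. With the shares of all windows given below, 9 windows are too few to read an absence as a trait of these genes. RefSeq (GRCh38.p14) gave 9 upstream windows for 7 of the 8 genes, and ELL2 had no entry. The core TTCCNNGAA of the known BCL6 motif, searched on both strands, was in 0 of the 9, against 3.68% of 22130 windows. The full form TTCCTAGAA was also in 0, against 0.244%. The looser palindrome TTCNNNGAA, which STAT factors also use and which takes in both other forms, was in 1 of 9, against 5.92%. It stood at the second HEXIM2 start, 235 bases upstream, at chr17:45161630-45161658 on the plus strand, where no peak of either list lay. The match is in capitals.

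HEXIM2: tttaattgagTTCGGAGAAggcgggtcca

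Most of these windows lay outside peaks, so the matches bear on few of the regions: the ELL3 window alone overlapped peaks, by 117 of 250 bases in replicate 1 and 250 in replicate 2. The sequence under the region beyond HEXIM2 was not analysed here.

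Among 33 other elongation genes, chosen from knowledge of the complexes, 20 had a summit of either list within 50 kb and 9 (27.3%) had a shared region, against 37.3% and 10.2% of all protein-coding genes. PAF1 and SUPT5H are counted separately for 1 region, and long genes such as AFF1 and MLLT3 have wide windows. These shares were not matched for gene length and not tested. The smaller of both fold enrichments at the 9 genes ran from 2.15 to 4.76, below that of the region beyond HEXIM2. No protein-coding gene was closer to the region than the elongation gene itself at 5 of them: ICE2, AFF1, MLLT3, SUPT4H1 and SUPT16H. Another protein-coding gene lay 368 bp from the SUPT4H1 summit and 677 bp from the SUPT16H summit. ICE2, a subunit of the little elongation complex, had fold enrichments of 4.95 and 4.76 at a summit 251 bp outside the gene.

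The super elongation complex scaffold AFF1 had 3 shared regions, and the strongest lay inside the gene with 4.17 and 5.95. MLLT3, a reader of acetylated histones in the same complex, had 1 inside the gene with 3.85 and 3.55. SUPT4H1, the small subunit of the pausing factor DSIF, had 3.11 and 2.95 at 69 bp from an end, and SUPT16H, a subunit of the histone chaperone FACT, had 3.61 and 2.93 at 503 bp. PAF1 and SUPT5H shared 1 region (3.52 and 3.43), 15.5 kb and 38.9 kb away and 203 bp from ZFP36, an mRNA decay factor. The regions assigned to TCEA1 (10.8 and 2.44) and SUPT6H (2.15 and 3.38) had their summits inside RGS20 and TLCD1. The other 24 of the 33 genes had no shared region within 50 kb.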

How the data were processed

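The submitters' processing notes name the build hg38, the aligner Bowtie2, the peak caller MACS2, and also cutadapt, FastQC, Picard, SAMtools, deepTools and bedtools. Not given in the sources used here are their versions, settings, order and the caller's control. The deposited narrowPeak lists, 1 per BCL6 sample, hold the authors' fold enrichment (a ratio) and the authors' −log10 p and −log10 q. The deposited score, 10 times −log10 q cut to a whole number, was not used. Groups and replicates came from the titles.

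Peaks of both lists were merged at 1 bp of overlap. The whole-number pileup and background were solved from fold enrichment, (pileup + 1) / (background + 1), and the Poisson −log10 p. Each of the 14 peaks matched within 0.001. In a test on data simulated with these same formulas all 500 pileups were recovered, which checks the solving step only. Genes and 250-base upstream windows came from RefSeq GRCh38.p14, the assembly of hg38. Genes were named by a fixed rule: all 8, closer protein-coding genes, and other elongation genes with a shared region. A closer gene that the rule also names is not reported here. Noncoding genes were named after values were seen. The genes and lists were chosen with earlier results of these data known, so no test was made. No genome sequence was used. Python 3.11.15, pandas 2.3.3 and scipy 1.17.1 were used. Alternatives were other windows, q limits, matching rules, single lists, distance to starts, motifs and peaks with summits near an edge left out.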

Additional observations from a re-analysis of the deposited data

How the results depend on the processing

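The counts depended on the window and the peak limits. Within 10 kb, 3 genes had a summit and 2 a shared region, with 5 regions, 2 of them shared, and 5 of the 33 other elongation genes had one. The shares of all protein-coding genes were then 23% and 5.79%; they were 29.2% and 7.51% within 25 kb and 49.2% and 15.1% within 100 kb, where the counts for the 8 genes changed little. With −log10 q of at least 5, HEXIM1 and HEXIM2 were the 2 genes with a shared region, through the 1 beyond HEXIM2, of 5 regions in all, against 4.49% of all protein-coding genes (18.1% for either list) and 4 other elongation genes. With at least 10, 2 genes had a summit, 2 a shared region, and 1 of 2 regions was shared, against 5.89% of all protein-coding genes with a summit and 2.39% with a shared region, and 0 other elongation genes with one. Reciprocal overlap of 50% left 2 shared regions, those at 2 genes, HEXIM1 and HEXIM2 (7.02% of all genes). Summits within 200 bp gave 7.7% of all genes and kept the 4 genes, with 3 shared regions. The region inside HEXIM1, with summits 266 bp apart, was lost, and HEXIM1 stayed through the region beyond HEXIM2. Measured to annotated starts alone, ELL lost its shared region and 3 genes kept one. The share was then 8.44% of the 15810 genes with an upstream window, among which ELL2 is missing. With each list alone, 4 to 5 genes had a summit and 4 to 10 regions were counted, against 23.3% to 29.5% of all genes; 10 exceeds 9 because a replicate 2 peak joins 2 replicate 1 peaks at ELL3. Shared regions need both lists, so no such value exists for them. Of 9 upstream windows, 0 held TTCCNNGAA (3.68% of all windows) and 1 held TTCNNNGAA (5.92%). TATAAA and GGGCGG, which are not forms of the BCL6 motif, were in 1 (9% of all windows) and 6 (53.7%). Leaving out peaks with a summit under 10 bases from an edge, chosen after seeing the data, took away the CCNT1 peak, and with it the sole peak at a P-TEFb subunit, so that 4 genes had a summit, against 36.4% of all protein-coding genes. The 4 genes with a shared region and the 4 shared regions stayed, against 9.82%. No paired analysis was possible because the IgG libraries, which share the replicate numbers, were not analysed here. Read totals are not given, which limits every comparison of pileups between lists.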

Other observations

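At 2 of the 14 peaks the summit lay 2 bases from the edge of its peak: the CCNT1 peak and the first ELL3 peak of the shared region, both in replicate 1. Over all peaks on chromosomes 1 to 22 and X, 3.73% in replicate 1 and 3.32% in replicate 2 had a summit under 10 bases from an edge. What sets the summit there was not tested.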
